A study of Mus musculus with 2 samples.

Results

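Cytosolic ribosomal protein genes were compared between 2 T cell libraries from mouse lymph nodes, one labelled conventional CD4 T and one labelled type 1 invariant natural killer T (iNKT). Members were the probes of the authors' value table whose annotated gene symbol is Rpl or Rps followed by a digit, or Rplp0, Rplp1, Rplp2 or Rpsa, without the Rps6k kinases and without pseudogenes. The rule took 71 of 11866 probes, for 60 of 8116 named genes. Of these, 33 encode proteins of the large subunit and 22 of the small subunit, and these 55 genes carry the counts below. Another 4 genes encode close paralogs (Rpl7l1, Rpl22l1, Rpl36al, Rps27l), and Rps19bp1 encodes a protein that binds Rps19 and is not part of the ribosome, so these were described apart. A further 29 protein-coding symbols of RefSeq that match the same rule were not analysed here.

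iNKT cells see lipids on CD1d through a T cell receptor of little diversity, and conventional CD4 T cells see peptides on class II molecules. The labels give female mice kept free of specific pathogens for both groups, and cells isolated by magnetic or fluorescence sorting. Strain, age, the number of mice and which sort served which sample are not given in the sources used here. Each group held 1 Illumina array, so the values have no replicates, the groups could not be tested against each other, and a gene was called where its fold reached 2 or more.

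The cytosolic ribosome is built from ribosomal RNA and a fixed set of proteins, in a large subunit that forms peptide bonds and a small subunit that reads the mRNA. The mRNAs of these proteins are among the most abundant of a growing cell, and most begin with a 5′ terminal oligopyrimidine (TOP) tract, through which mTOR signalling adjusts their translation. Lymphocytes raise ribosome production when they leave quiescence. Probe signal on an array measures the mRNA level, not its translation.

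Values are log2 signals of the authors' value table, and a difference is the library labelled iNKT minus the library labelled CD4 T. A gene with several probes is given by the brightest, and a gene counts as detected at a log2 signal of 7.83 or more, the level of a detection p of 0.01. The spread between probes of the same gene (within-gene SD of the log2 difference, 0.586 over 2161 genes) was the only error that could be measured, and it covers no variation between animals, sorts or arrays. Fewer cells of a type and less RNA per cell cannot be told apart in such samples. Mouse ribosomal protein genes also have many processed copies (309 pseudogenes of RefSeq carry such a symbol), so a probe may read more than 1 locus.

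The labels were checked against marker genes. Of 7 iNKT markers with a probe, 6 differed by 2-fold or more in favour of the library labelled iNKT, such as Tbx21 at 3.37. Of 6 T cell markers with a probe, 0 differed by 2-fold or more, with 3 above 0 and 3 below. Cd3e was near equal at 0.11. Cd4 itself measured 9.61 in the library labelled CD4 T and 8.997 in the library labelled iNKT (-0.61), so it did not separate the libraries by 2-fold. Cd8b1, the CD8 beta chain, measured 15.60 in the library labelled CD4 T and 9.33 in the other, and the Y-linked Eif2s3y measured 11.55 and 9.0 although both samples are labelled female. The authors' non-normalized table also gives other values for the sample labelled iNKT than their value table does (Spearman's rho 0.822 across probes, against 1 for the sample labelled CD4 T). In it no member probe differed between the columns by more than 0.22 on the log2 scale. Of all probes compared, members or not, 0 were 2-fold apart there, so the near-equal columns are not particular to the members. The second value column was as close in rank to the first non-normalized column (0.823), and which table holds the true signals of the sample labelled iNKT could not be settled. Each group is therefore called the library labelled so, and every difference below rests on the value table.

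Most ribosomal protein genes were slightly dimmer in the library labelled iNKT, and a few were far brighter. Of the 55 genes, 52 were detected in both libraries, with a median difference of -0.25 (quartiles -0.64 and -0.01), beside -0.06 (-0.51 and 0.41) over all 5989 genes detected in both. The difference was below 0 for 39 of the 52, and for 3225 of the 5989. It was 2-fold or more higher in 4, Rpl24, Rpl7a, Rpl27 and Rps7, where 8.95% of all genes were called higher. It was 2-fold or more lower in 3, Rpl35a, Rpl4 and Rplp0, where 10.7% of all genes were called lower. The shares of members called, 7.69% higher and 5.77% lower, lay below this background. For 29 of the 55 genes, however, a 2-fold rise could not have been recorded, as described below. At 1.5-fold 5 members were higher (18.2% of all genes) and 15 lower (22.5%), and at 3-fold 4 were higher (3.26%) and 0 lower (3.27%). The median shift describes these 2 arrays only.

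**Figure D1:**
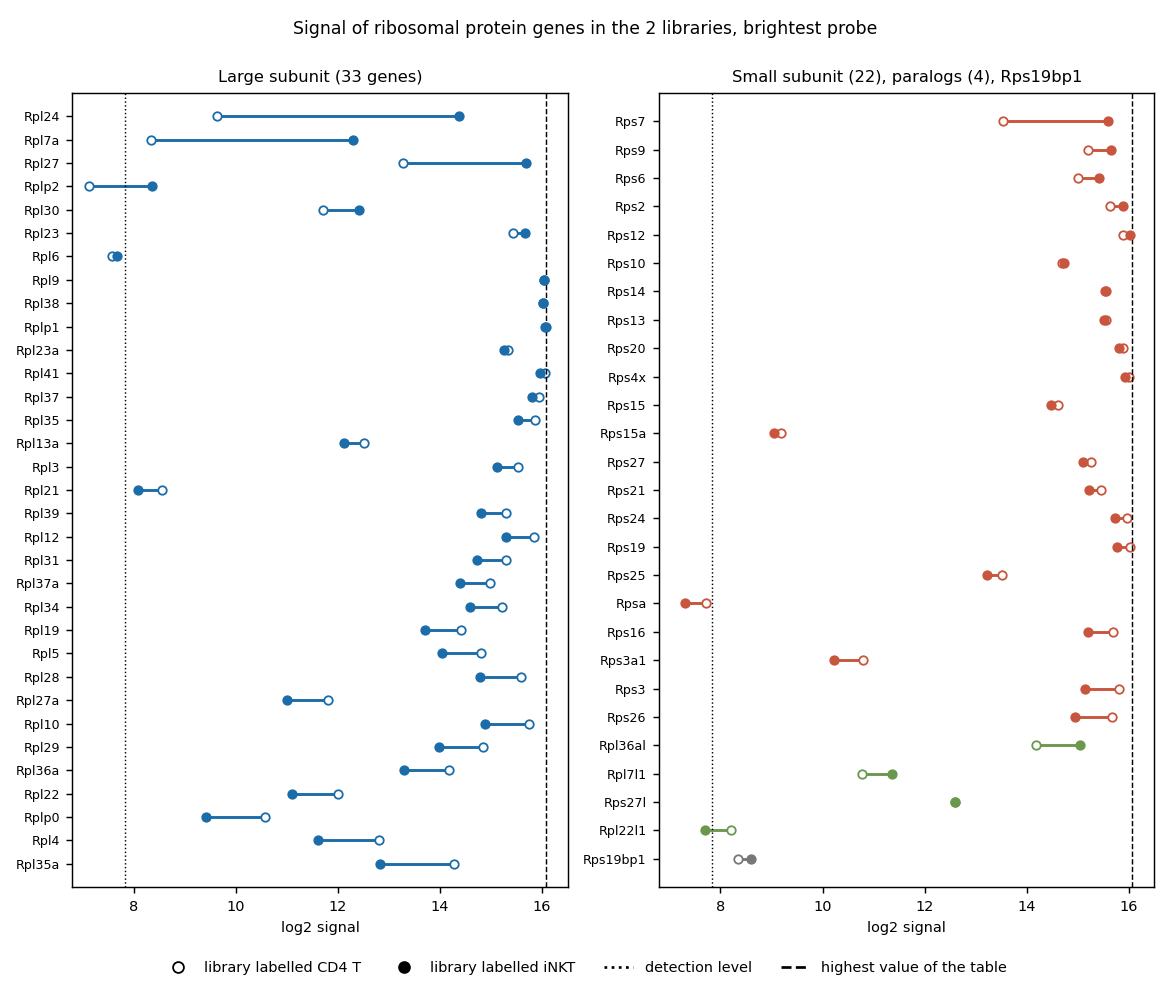
Log2 signal (x axis) of each of the 60 genes at its brightest probe, in the library labelled CD4 T (open circles) and the library labelled iNKT (filled circles), with large subunit genes on the left and small subunit genes, paralogs and Rps19bp1 on the right, each sorted by difference. Many members lie close to the highest value of the table at 16.07 (dashed line), and Rpl24 and Rpl7a show the longest shifts; the dotted line is the detection level of 7.83.

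The 7 genes past 2-fold are the ones in which the members depart from each other, so the annotated transcription start of each is shown first. The windows hold 15 bases before and 15 bases from the start in RefSeq (build GRCm38.p6), 5′ to 3′ on the gene's strand, with the longest run of C and T in capitals. For Rpl35a, which has several annotated starts, the one with the longest run is given.
Rpl24, chr16:55966260-55966289 (+): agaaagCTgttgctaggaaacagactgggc
Rpl7a, chr2:26910792-26910821 (+): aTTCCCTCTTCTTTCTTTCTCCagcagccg
Rpl27, chr11:101442230-101442259 (+): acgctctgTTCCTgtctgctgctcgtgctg
Rps7, chr12:28635939-28635968 (-): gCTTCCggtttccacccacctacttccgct
Rpl35a, chr16:33056467-33056496 (+): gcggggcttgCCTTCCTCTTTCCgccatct
Rpl4, chr9:64173372-64173401 (+): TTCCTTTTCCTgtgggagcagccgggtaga
Rplp0, chr5:115559452-115559481 (+): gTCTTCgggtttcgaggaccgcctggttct
Runs of 8 bases or more were present for Rpl7a (21 bases), Rpl35a (13) and Rpl4 (11), and not for Rpl24, Rpl27, Rps7 or Rplp0. Such a run was in the window of 1 of the 4 genes called higher and 2 of the 3 called lower. That of Rpl4 lies wholly before the annotated start, so it is not shown to be in the mRNA. Annotated starts can lie several bases from the base where transcription begins, so a missing run says only that it is not in this window.

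Across the list, 47 of the 55 genes had a promoter in the RefSeq table, with 56 annotated starts. A run of 8 or more C or T lay in the 30-base window of 21 of these starts, beside 3943 of all 32851 starts. In the whole 300-base promoter, on either strand, CTTTCC (pyrimidines that can be part of such a run) was found in 28 of the members' 56 starts and 26.6% of all. CCGGAA, the core that ETS-family factors bind, was found in 46.4% and 14.9%. The E-box CACGTG, which Myc can bind, was found in 12.5% and 7.15%, and the TATA motif TATAAA in 8.93% and 13.6%. These shares describe letters and say nothing of binding in either library. Of the 45 members called in neither direction, 37 had a promoter and 16 of these a run of 8 or more.

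Rpl24, a large subunit protein that forms a bridge to the small subunit, measured 9.63 (log2 signal) in the library labelled CD4 T and 14.37 in the library labelled iNKT. That is a difference of 4.74, or 26.7-fold, and on the array it moved the probe from percentile 59.4 of the value table to percentile 98.8. Rpl7a, another large subunit protein, had 8.34 and 12.29, a difference of 3.95 (15.4-fold). In the library labelled CD4 T the Rpl7a probe lay near the detection level, at percentile 35.4, far below most other members. With background subtracted the difference of Rpl7a was 4.93 and that of Rpl24 was 5.07.

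Rpl27 and Rps7 were brighter in the library labelled iNKT from an already high signal. Rpl27, a large subunit protein, had a log2 signal of 13.27 and 15.68, a difference of 2.41 (5.31-fold). Rps7, a small subunit protein that also binds the p53 regulator Mdm2, had 13.54 and 15.60, a difference of 2.06 (4.17-fold). In that library both probes lay among the bulk of the bright members. All 4 genes have 1 probe on the value table, so no second probe could check them. In the non-normalized table their 2 signals were near equal, for example 832 and 831 for Rpl24 and 344 and 347 for Rpl7a, on a linear scale.

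In the other direction, Rpl35a, a large subunit gene that is mutated in some patients with Diamond-Blackfan anaemia, measured 14.28 (log2 signal) in the library labelled CD4 T and 12.83 in the library labelled iNKT, a difference of -1.45 (2.74-fold lower). Rpl4, which lines the exit tunnel, had 12.81 and 11.61 (-1.20), and Rplp0 had 10.58 and 9.41 (-1.17). These 3 also have 1 probe each. These 3 differences are far closer to the within-gene SD of 0.586 than those of Rpl24 and Rpl7a.

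The P-stalk, where elongation factors dock, has 3 members on the table. Rplp0 forms its base and was lower past 2-fold, Rplp1 lay at the top of the scale with 16.07 and 16.05 (-0.01), and Rplp2, the partner of Rplp1, was detected only in the library labelled iNKT, with 7.13 and 8.36. Measured against the detection level, Rplp2 was at least 1.44-fold higher in the value table. In the non-normalized table its detection p for the sample labelled iNKT was 0.53. The Rplp1 probe holds the highest value of the table, so a rise could not have been recorded there. Rplp0 is often used as a reference gene, and so is Rpl13a, which had 12.51 and 12.11 (-0.40).

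The other large subunit genes below 0 formed a close series. Rpl22, which is needed for the development of alpha beta T cells in mice, had a log2 signal of 12.003 and 11.10 (-0.91). Rpl36a differed by -0.89, Rpl29 by -0.86 at its brighter probe and 0.31 at the other, Rpl10, which joins late in assembly, by -0.85, and Rpl27a by -0.81. None of these reached 2-fold. Rpl5, which carries 5S ribosomal RNA into the subunit, had 14.80 and 14.05 (-0.75), and Rpl3, near the peptidyl transferase centre, had 15.53 and 15.12 (-0.41). At the other end, Rpl30 had 11.70 and 12.41 (0.71) and Rpl23 had 15.42 and 15.66 (0.24) at its brightest probe, with -0.12 and -0.29 at its other 2 probes. Rpl9 with 16.04 in both libraries and Rpl38 with 16.02 and 16.01 lay at the top of the scale, where no rise could be read.

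Among small subunit genes only Rps7 passed 2-fold at the brightest probe, where 17 of the 21 detected in both libraries lay within 0.5 of 0. The other probes of Rps3 (-2.03) and Rps9 (-1.17) did pass 2-fold. Rps26, which sits at the mRNA exit site, had the lowest difference, with 15.66 and 14.94 (-0.72), followed by Rps3, at the mRNA entry site, with 15.80 and 15.13 (-0.67), and Rps3a1 with 10.79 and 10.22 (-0.57). Rps6, the substrate of the S6 kinases, had 15.001 and 15.41 (0.41). Rps9 was highest after Rps7, with 15.21 and 15.65 (0.44). Rps14, Rps13 and Rps10 differed by 0.02, -0.03 and 0.03. Rpsa, with 7.72 and 7.30, and the large subunit gene Rpl6, with 7.58 and 7.67, lay below the detection level in both libraries, which says that these probes were dim and not that the genes are silent.

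The median difference was -0.49 over the 31 large subunit genes detected in both libraries and -0.13 over the 21 small subunit genes, so the large subunit lay lower by 0.35. Of the large subunit genes 25 lay below 0 and 6 above, and of the small subunit genes 14 and 7. The interquartile range was 0.757 for the large and 0.291 for the small subunit, and these ranges overlap. The gap differed by signal level. Among genes with a mean log2 signal of 15 or more, the medians were -0.24 for 14 large and -0.08 for 15 small subunit genes, and below 15 they were -0.70 for 17 and -0.14 for 6. With the brightest 1% of probes left out, both medians were -0.59, over 16 large and 6 small subunit genes, and the gap was 0.0036. In this setting dimmer probes stood for the small subunit genes Rps3 (-2.03), Rps9 (-1.17) and Rps24 (-0.61). They also stood for the large subunit genes Rpl23 (-0.29), Rpl29 (0.31), Rpl31 (-1.17) and Rpl38 (1.48). The setting thus changed the probes as well as the signal level. Genes are not replicates, and no test of the subunits was made.

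**Figure D2:**
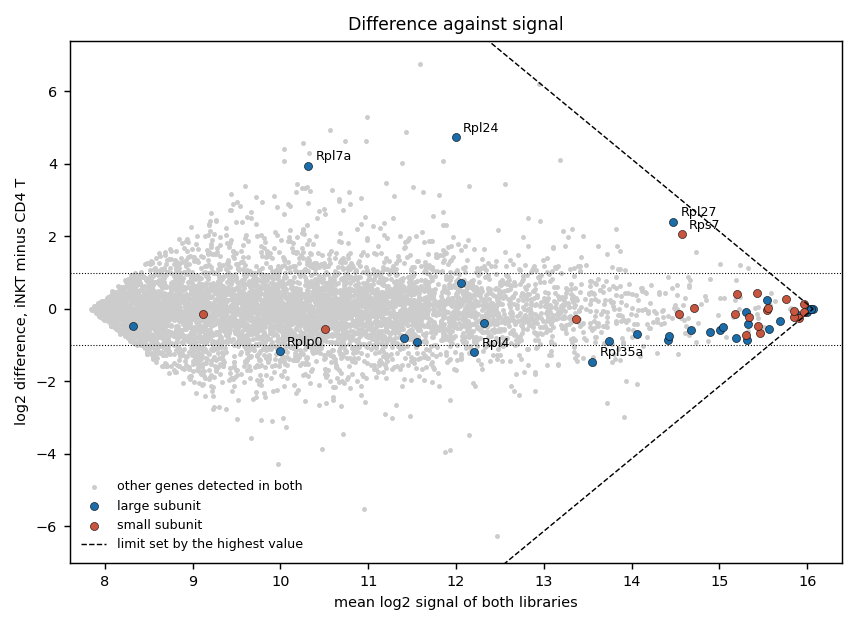
Log2 difference (y axis, library labelled iNKT minus library labelled CD4 T) against the mean log2 signal of both libraries (x axis), for genes detected in both: large subunit (blue), small subunit (red) and all other genes (grey), with dotted lines at 2-fold. The dashed lines are the differences that the highest value of the table permits. At a mean of 15 or more, 29 ribosomal protein genes crowd and none passed 2-fold, beside 3 of 24 other genes. Rpl24 and Rpl7a stand at 4.74 and 3.95.

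The top of the signal scale limited what the members could show. Probes of the members made up 37 of the 119 brightest probes (31.1%) in the library labelled CD4 T and 35 of 119 (29.4%) in the other. For 29 of the 55 genes (52.7%) the signal in the library labelled CD4 T was less than 1 log2 unit below the highest value of the table, 16.07, so a 2-fold rise could not have been recorded. The same held for 52 of all 8116 genes (0.641%). The SD of the differences was 0.345 among the 29 members with a mean of 15 or more and 1.18 among the 12 members between 13 and 15. This set of 29 is not the one above, since it holds Rps6 and lacks Rpl34. For genes outside the rule the SD was 0.546 over 24 genes, 3 of them called higher, and 0.788 over 339. Over the 23 detected members with room for a 2-fold rise the median was -0.47. Of these members 4 were called higher (17.4%) and 3 lower (13.04%). Among all 5937 detected genes with such room, 9.03% were called higher and 10.7% lower. The members' shares lay above this background, on counts of only 4 and 3 genes. These 23 were chosen after the values were seen.

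Probes of the same gene could disagree. Of the 9 ribosomal protein genes with several probes, 0 were called at the brightest probe. Over all 1923 genes with several probes detected in both libraries, 9.72% were called higher and 9.57% lower. A dimmer probe passed 2-fold in 4 of the 9: Rpl31, Rpl38, Rps3 and Rps9. The 2 percentages above are for the brightest probe, and the share for dimmer probes over all genes was not computed. The log2 differences of the 2 brightest probes lay over 1 apart in 4 of the 9 (44.4%) and in 434 of all 2161 genes with several probes (20.1%). Rps9 had 15.21 and 15.65 at its brightest probe (0.44) and 14.07 and 12.90 at the other (-1.17). Rpl38, whose loss alters the skeleton in mice, had 8.63 and 10.11 (1.48) at its dim probe, while its bright probe lay at the top of the scale and could not record such a rise. Rps3 was lower at both, with -0.67 at the brightest probe and 14.64 and 12.61 (-2.03) at the other. Rpl31 was also lower at both probes, with differences of -0.58 and -1.17. Rpl29 had -0.86 at its brightest probe and 12.67 and 12.97 (0.31) at the other. The within-gene SD was 0.713 over these 9 genes.

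**Figure D3:**
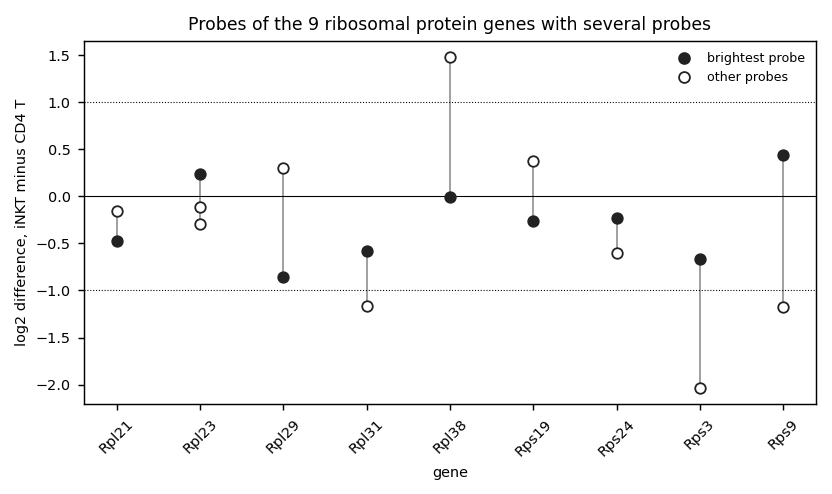
Log2 difference (y axis) at each probe of the 9 ribosomal protein genes with several probes (x axis), with the brightest probe of a gene filled and the others open; dotted lines mark 2-fold. The brightest probes all lie within 2-fold, while dimmer probes of Rpl31, Rpl38, Rps3 and Rps9 lie outside it.

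All 7 called members were single-probe genes. Of the 43 single-probe members detected in both libraries 4 were called higher (9.30%) and 3 lower (6.98%), beside 8.58% and 11.2% of all single-probe genes. The shares among members were near those of other single-probe genes. The median was -0.22 for the 43 and -0.26 for the 9 with several probes, so it lay below 0 in both sets.

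Paralogs were set beside their partners, and 1 pair lay in opposite directions. Rpl36al, which encodes a protein almost identical to that of Rpl36a, had a log2 signal of 14.17 and 15.03 (0.86), opposite to Rpl36a, which had 14.18 and 13.29 (-0.89). Rpl7l1, a relative of Rpl7, had 10.76 and 11.36 (0.60) at its brighter probe and 8.11 and 7.87 (-0.24) at the other. Rps27l was equal at 12.59 in both libraries, and Rps27 was nearly so with 15.26 and 15.10 (-0.15). Rpl22l1, which can stand in for Rpl22, was detected only in the library labelled CD4 T, with 8.21 and 7.69, and Rpl22 was also lower in the other library. None of the 4 reached 2-fold, and Rps19bp1, with 8.34 and 8.59 (0.25), did not either.

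Other genes of translation were described from lists of fixed symbols. Fau, which encodes a small subunit protein under another name, had 15.52 and 15.63 (0.12). Of 26 translation initiation factors detected in both libraries 0 were called higher and 6 lower (23.1%, where 10.7% of all genes were), with a median of 0.03. The 6 were Eif3k at -2.13, Eif3a at -1.61, Eif2s3x at -1.38, Pabpc1 at -1.27, Eif4g2 and Eif3l both at -1.09. Of 8 genes on the elongation and termination list 2 were higher (25%, where 8.95% of all genes were). These were Eef2, which moves the ribosome along the mRNA, at 1.75 and Eif5a at 1.01. Another 2 were lower (25%, where 10.7% of all genes were), Eef1e1 at -1.32 and Eef1b2 at -1.05. These shares rest on 2 genes each. The median of that list was -0.32.

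Factors that build ribosomes were more often lower than higher. Of 46 ribosome biogenesis genes detected in both, 11 were called lower (23.9%) and 1 higher, beside 10.7% lower and 8.95% higher over all genes, and their median was -0.32, beside -0.06. The lowest were Ddx21, a nucleolar RNA helicase, with a log2 signal of 11.86 and 9.33 (-2.52), and Emg1, a ribosomal RNA methyltransferase, with 12.16 and 10.25 (-1.90). The 1 higher gene was Nhp2, a protein of box H/ACA particles, with 10.002 and 11.96 (1.96). Of 12 other mRNAs that carry a TOP tract 4 were lower (33.3%, against the same 10.7%), among them Naca at -1.45 and Vim at -1.73, and 1 was higher (8.33%, against 8.95%), Eef2. Some genes stand on several of these lists. The 68 mitochondrial ribosomal protein genes, a separate ribosome, had a median of 0.09, with 4 called higher and 4 lower (5.88% each, below the shares over all genes).

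**Figure D4:**
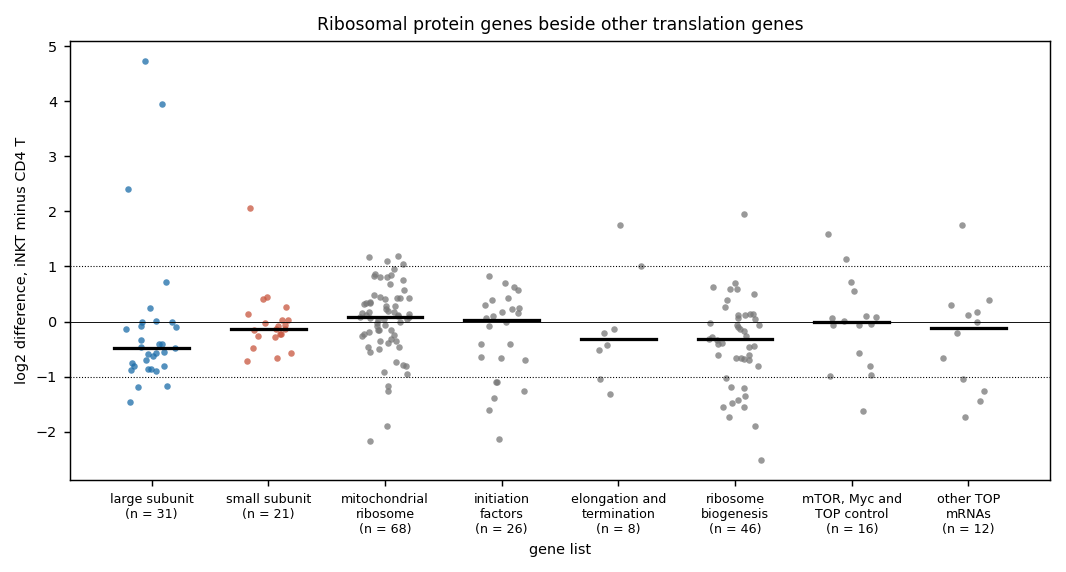
Log2 difference (y axis) of each gene detected in both libraries, by list (x axis), with the median as a bar and dotted lines at 2-fold. Large subunit genes have a median of -0.49 and small subunit genes of -0.13, beside 0.09 for mitochondrial ribosomal proteins and -0.32 for ribosome biogenesis genes, and Rpl24 and Rpl7a lie above every other gene drawn.

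Markers of other cells moved between the libraries as well. Red cell markers had 3 of 5 genes on the table, 1 detected in the library labelled CD4 T and 3 in the library labelled iNKT, with a summed linear signal of 1241 and 74606. Hepatocyte markers had 6 of 7 genes on the table, 0 detected in the first and 6 in the second (915 and 12962). Monocyte and macrophage markers had 3 of 6, with 2 detected in each (4148 and 19543), and these 3 were divided. Cebpb was higher in the library labelled iNKT (2.43) and Lyz2 was detected only there, while Ctss was detected only in the library labelled CD4 T. CD8 T cell markers had 2 of 3, with 2 and 1 detected (60833 and 858), and B cell markers 2 of 5, with 2 detected in each (1279 and 611). Their part in the differences of ribosomal protein genes was not tested.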

How the data were processed

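RNA of both sorted samples was hybridised to Illumina mouse bead arrays, after extraction with a QIAGEN kit, per the labels' protocols. GenomeStudio 2009.2 is named in the submitters' processing notes, and no source used here gives the normalization or the filters. The authors deposited linear intensity values of 25697 probes, each column followed by a detection p-value, per the file headers. The authors also deposited log2 values of 11866 probes, whose sorted columns agreed within 0.00025, as quantile normalization leaves them. The log2 values were used as deposited. The highest-mean probe stood for a gene. A detection p of 0.01 in the non-normalized column of the sample labelled CD4 T set the level of 7.83, applied to both columns. Symbols came from the platform annotation (11155 probes with 1 symbol, 0 with several, 711 with none), and all 60 member genes were found in RefSeq for GRCm38.p6. Promoters came from RefSeq of that build.

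Groups followed the labelled cell type. With 1 array per group there was no test, and the number of arrays limits the precision. Any member could be named, with full values for those past 2-fold, the 8 highest and lowest, those whose probes disagree, and 9 genes chosen whatever their values, of which Rps18 was not analysed here; list genes were named if past 2-fold or at a list's ends. The members and lists were chosen with earlier results of these data known. Alternatives concerned probe choice, detection, background, source table (neqc of limma 3.58.1, R 4.3.3, offset 16), bright probes, single-probe genes, paralogs and threshold. Summaries were tested on simulated data. Columns with no sample numbered 0.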

Additional observations from a re-analysis of the deposited data

How the results depend on the processing

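No paired analysis was possible because each group holds 1 array, and for the same reason no replicate could be left out. A value was taken as shifted when it moved by more than the error expected from the spread between probes of a gene, and a count when it changed by over 1.5 times. Of 64 recomputed summary values, 47 stayed within these limits, among them all under the mean of a gene's probes, other detection levels, background subtraction and inclusion of paralogs. With the non-normalized table the median was -0.00044, the large subunit median -0.00089 and the gap between subunits -0.00089, with 0 members called higher and 0 lower. Over all 5989 genes that table also gave 0 higher and 0 lower, with a median of -0.0005. Under it, where the 2 columns are near equal, 4 of the 7 called genes changed sign, Rpl27 (-0.12), Rps7 (-0.079), Rpl35a (0.10) and Rpl4 (0.053), and so did some genes not called, such as Rpl36a (0.19) and Rpl29 (0.12). Under the mean of a gene's probes Rps9 (-0.37) and Rpl38 (0.73), not called either, changed sign. Rps3 moved to -1.35 under that mean, which is past 2-fold. Without the brightest 1% of probes the median was -0.59, the small subunit median -0.59 and the gap 0.0036. Then 6 of 22 members were called lower (645 of all 5916 genes), among them Rpl31, Rps3 and Rps9 at their dimmer probes. In that setting 3 were called higher (534 of all), Rpl24, Rpl7a and Rpl38 at its dimmer probe. The probes of Rpl27 and Rps7 were among those left out. Genes with 2 or more probes gave 0 higher and 0 lower, over 9 members (9.72% and 9.57% of all such genes). Counting each of 61 member probes gave 5 higher and 6 lower, and the share over all probes was not computed. At 1.5-fold 15 were lower (all genes 22.5%), and at 3-fold 0 (3.27%), with 4 still higher. Over genes with room for a 2-fold rise, chosen after seeing the data, the median was -0.47, the large subunit median -0.73 and the gap -0.59. Of 66 recomputed single-gene differences 46 stayed within the limits, and of the other 20 the non-normalized table gave 16. The top of the signal scale limits a rise in 29 of the 55 genes.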

Other observations

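Of 16 genes of mTOR, Myc and TOP control that both libraries detected, 2 were called higher and 1 lower at 2-fold, with a median of -0.02, and these shares (12.5% and 6.25%) lie near the 8.95% and 10.7% of all genes. Eif4ebp2, which blocks the cap-binding factor until mTOR phosphorylates it, measured 9.78 (log2 signal) in the library labelled CD4 T and 11.37 in the library labelled iNKT (1.59), and Pdpk1, which activates Akt and S6 kinases, had 9.79 and 10.94 (1.14). Rictor, a subunit of mTOR complex 2, had 12.01 and 10.38 (-1.63). Mtor itself had 9.62 and 9.55 (-0.06) and Myc 8.86 and 8.29 (-0.57). Mxd4, a Max partner that opposes Myc, was detected only in the library labelled iNKT, at least 3.85-fold above the detection level. The S6 kinase Rps6kb2 had 7.95 and 7.69, the second of which lies under the detection level, while the related Rps6ka3 and Rps6ka5 differed by -0.98 and -0.04.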
